A study of Mus musculus with 24 samples.

Results

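Transcript levels of 10 genes that make or sense prostaglandins, thromboxane and leukotrienes were followed in mouse macrophages given LPS, LPS with IFNg or IL-4. The genes were Pla2g4a, Ptgs1, Ptgs2, Ptges, Tbxas1, Hpgds, Ptger4, Alox5ap, Alox5 and Ltc4s. Each was found in the count files by the Ensembl identifier that GENCODE M21 gives its symbol. They are 10 of the 43629 gene identifiers in each file, and all 10 passed the filter on low counts that left 12765 genes to test. They were listed by name and pathway, though the choice was made with earlier results of these data known.

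The cells were bone marrow-derived macrophages of wild-type C57BL/6 mice, grown to day 7 in RPMI medium with 20 ng/mL CSF-1, the growth factor that drives this lineage and that was also in the medium during stimulation. They were left unstimulated, or were given 1 of 3 stimuli. These were lipopolysaccharide (LPS), a bacterial product that TLR4 senses, the same LPS together with interferon gamma (IFNg) at 50 ng/mL, and interleukin 4 (IL-4) at 20 ng/mL. The labels name LPS doses of 20 and 100 ng/mL without saying which applied to these libraries. RNA was collected at 1 h or at 18 h, so that there were 24 libraries in 8 groups of 3. No genetic change was made in any group. Whether the replicates came from different animals or cultures is not in the labels, and the p-values therefore reflect no more than the spread among the libraries at hand, part or all of which may be technical.

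Eicosanoids are signalling lipids made from arachidonic acid, which the cytosolic phospholipase A2 (Pla2g4a) cuts out of membranes. The cyclooxygenases COX-1 (Ptgs1) and COX-2 (Ptgs2) turn it into prostaglandin H2, which terminal synthases convert to prostaglandin E2 (Ptges), thromboxane A2 (Tbxas1) or prostaglandin D2 (Hpgds), while 5-lipoxygenase (Alox5) with its partner FLAP (Alox5ap) starts the leukotriene branch and Ltc4s makes the cysteinyl leukotriene C4. Macrophages are known for a COX-2 and prostaglandin E2 output that inflammatory stimuli turn on, and the receptor EP4 (Ptger4) senses that product.

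Total counts ran from 4181890 to 8122945 per library, and levels are given as CPM, counts scaled to the library total after TMM adjustment. At 18 h, replicate 3 of the unstimulated and of the IL-4 cells had reads in 19108 and 17808 genes, against at most 16775 in the other 22 libraries. Replicate 2 of LPS at 18 h also stood apart from its group, with chi-square values per gene of 9.25 and 11.4 against replicates 1 and 3, and replicates 1 and 2 of IL-4 at 18 h differed by 7.41. All 8 macrophage markers had reads in every group, with summed levels of 10188 to 25623 CPM. As a check of the stimuli, Tnf had 34.6 CPM in unstimulated cells and 4922 CPM under LPS at 1 h. At 18 h the IL-4 marker Chil3 had 30.7 CPM in unstimulated cells, 589 under IL-4 and 23.4 under LPS, and Retnla had 204 CPM under IL-4 and was at 0 in the unstimulated and LPS groups. Arg1 had 618 CPM under IL-4 at 18 h, and it was also higher under LPS (173) and LPS with IFNg (19.3) than in unstimulated cells (0.465). In such bulk samples, fewer cells of a type and less RNA per cell cannot be told apart.

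Against unstimulated cells of the same time, 3 of the 10 genes rose under LPS at 1 h and none fell. In that comparison 22.2% of all tested genes were called at an adjusted p below 0.05, 10.8% higher and 11.5% lower. With IFNg added to LPS, 4 rose and none fell at 1 h, where 29.4% of all tested genes were called (14.7% in each direction). IL-4 at 1 h gave 2 higher and none lower, against 6.49% of all tested genes (3.22% higher, 3.27% lower). With library size alone as the scaling, LPS at 1 h gave 3 higher and 2 lower members, and LPS with IFNg gave 4 higher and 3 lower.

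At 18 h most of the pathway was called under each stimulus. LPS gave 4 higher and 4 lower members, where 63.1% of all tested genes were called (31.8% higher, 31.4% lower), and library-size scaling made this 3 higher and 6 lower. LPS with IFNg gave 3 higher and 6 lower, with 72.2% of all tested genes called (36.1% in each direction). IL-4 gave 3 higher and 5 lower, with 39.2% of all tested genes called (19.0% higher, 20.1% lower). The share of members called under LPS and under LPS with IFNg lies near the background, so the count itself says little of these genes, and which gene moved where is given below. Without replicate 2 of LPS and of IL-4 at 18 h, the counts were 4 higher and 5 lower under LPS and 4 higher and 4 lower under IL-4. Without replicate 3 of the unstimulated and IL-4 cells at 18 h, IL-4 gave 2 higher and 4 lower. The comparisons at one time share the same unstimulated libraries.

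**Figure D1:**
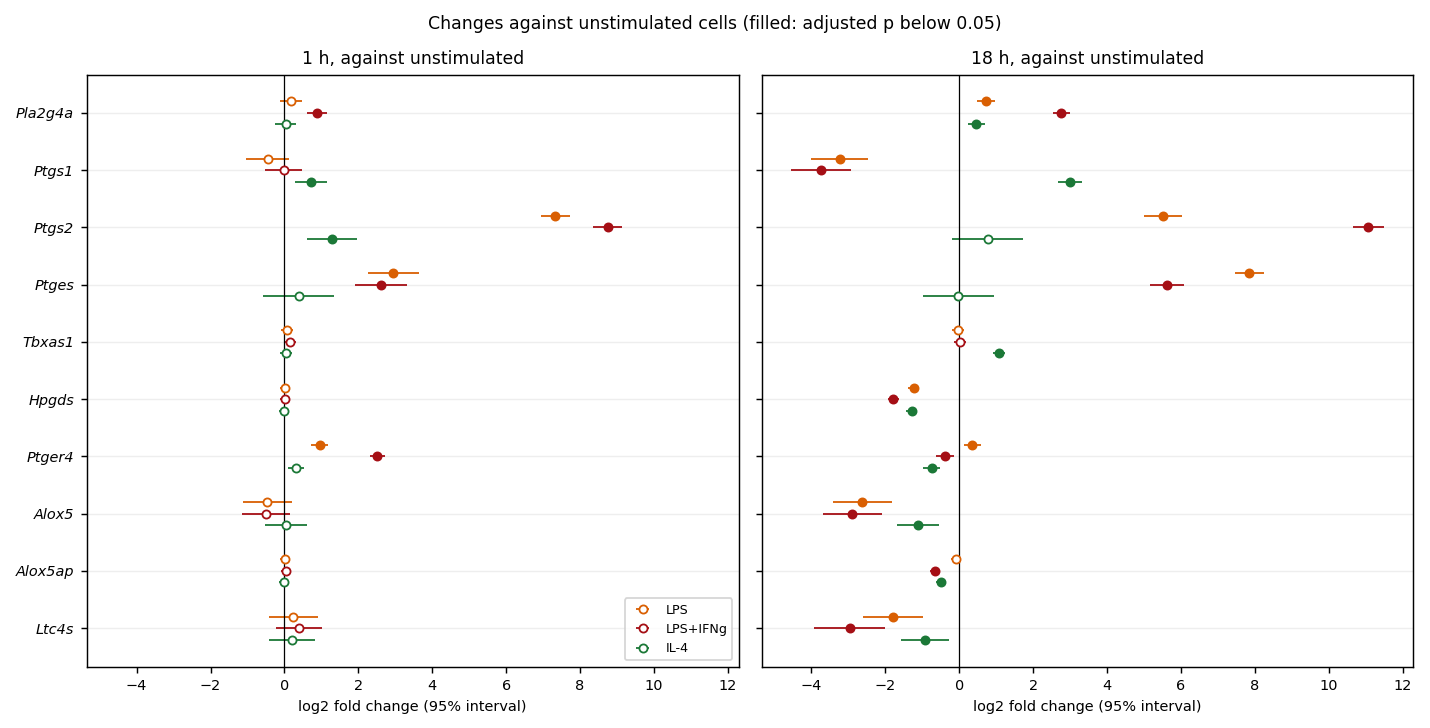
Log2 fold change of each of the 10 genes (horizontal axis) against unstimulated cells of the same time, with 95% intervals, for LPS, LPS with IFNg and IL-4 at 1 h and at 18 h, from fits to 3 libraries a group. Filled points have an adjusted p below 0.05. Ptgs2 and Ptges lie far to the right under both LPS stimuli, Ptgs1 lies to the left under them at 18 h and to the right under IL-4, and Hpgds lies to the left in all 3 groups at 18 h.

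The first step, release of arachidonic acid, is carried by Pla2g4a (chr1:149829618-149961290, minus strand). It had 22.2 ± 1.26 CPM (SD, n = 3) in unstimulated cells at 1 h, 24.9 ± 4.32 under LPS, 40.9 ± 4.43 under LPS with IFNg and 22.6 ± 2.97 under IL-4. At 18 h the unstimulated libraries held 48.5, 36.8 and 33.8 CPM, LPS 59.8, 66.8 and 70.4, LPS with IFNg 262, 256 and 286, and IL-4 51.2, 51.4 and 61.8. Every stimulated library at 18 h lay above every unstimulated one, and the 3 LPS with IFNg libraries lay far above all others. The fitted rise at 18 h was 2.76 ± 0.11 on the log2 scale (SE; 6.77-fold, adjusted p = 2.59e-19) under LPS with IFNg. It was 0.73 ± 0.12 (1.66-fold, adjusted p = 3.97e-06) under LPS and 0.46 ± 0.12 (1.38-fold, adjusted p = 0.0020) under IL-4. The IL-4 call was lost without replicate 3 of the unstimulated and IL-4 cells (0.27, adjusted p = 0.122). At 1 h Pla2g4a rose under LPS with IFNg by 0.88 ± 0.13 (1.84-fold, adjusted p = 4.15e-06) and was not called under LPS or IL-4.

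COX-2, encoded by Ptgs2 (chr1:150100031-150108227, plus strand), is the inducible cyclooxygenase. COX-1, encoded by Ptgs1 (chr2:36230426-36252272, plus strand), is usually described as the constitutive one. The 250 bases before each start are printed because the pair of genes moved in opposite directions at 18 h under both LPS stimuli. They are from RefSeq on GRCm38.p6, at chr1:150099781-150100030 for Ptgs2 and chr2:36230176-36230425 for Ptgs1, both on the plus strand and 5′ to 3′, with motif matches in capitals.
Ptgs2: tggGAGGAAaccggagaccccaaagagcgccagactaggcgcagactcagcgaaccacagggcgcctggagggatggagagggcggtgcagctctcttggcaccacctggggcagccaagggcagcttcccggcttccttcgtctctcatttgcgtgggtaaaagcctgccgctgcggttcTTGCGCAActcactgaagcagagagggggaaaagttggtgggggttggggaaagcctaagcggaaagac
Ptgs1: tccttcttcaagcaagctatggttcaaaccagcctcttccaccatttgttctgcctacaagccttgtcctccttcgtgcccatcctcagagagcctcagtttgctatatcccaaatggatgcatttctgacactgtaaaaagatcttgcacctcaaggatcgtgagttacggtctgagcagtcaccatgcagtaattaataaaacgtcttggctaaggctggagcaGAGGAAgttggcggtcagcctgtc
The Ptgs2 window held a C/EBP match (TTGCNNAA) at -69 to -62 from the start and a PU.1 match (GAGGAA) at -247 to -242, and the Ptgs1 window a PU.1 match at -24 to -19. Of 32851 promoter windows of this length, 9.56% held the C/EBP letters and 23.3% the PU.1 letters on either strand. The NF-kappaB motif, found in 7.25% of windows, the cyclic AMP element TGACGTCA (1.55%) and the E-box CACGTG (6.02%) had no match in either window. No match says only that those letters are not in these 250 bases.

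Ptgs2 had the widest range of the 10 genes. At 1 h it had 3.59, 1.03 and 0.937 CPM in unstimulated cells, 301, 291 and 361 under LPS, 844, 784 and 911 under LPS with IFNg, and 4.93, 4.30 and 5.14 under IL-4. None of these 4 groups overlapped another. The rise was 161-fold under LPS (log2 7.33 ± 0.19, adjusted p = 3.34e-23) and 429-fold under LPS with IFNg (log2 8.74 ± 0.19, adjusted p = 1.43e-25). Unstimulated replicate 1 weighs on these folds: without it they were 312 (log2 8.29) and 840 (log2 9.71).

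At 18 h the 2 LPS stimuli parted. Ptgs2 had 54.1, 42.9 and 50.2 CPM under LPS and 2257, 2439.8 and 2239.7 CPM under LPS with IFNg, against 1.18, 0.894 and 1.10 in unstimulated cells. The LPS libraries were lower than at 1 h and the LPS with IFNg libraries higher, with no overlap in either case. The fold over unstimulated cells was 45.9 under LPS (log2 5.52 ± 0.25, adjusted p = 8.88e-18) and 2155 under LPS with IFNg (log2 11.07 ± 0.20, adjusted p = 2.28e-27). Between the times the LPS response fell by 1.81 on the log2 scale and the LPS with IFNg response rose by 2.33, both called by the interaction test. Without unstimulated replicate 1 at 1 h these were -2.76 and 1.36, and both were still called.

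Under IL-4 the Ptgs2 level stayed low. At 1 h it was 2.45-fold higher than in unstimulated cells (log2 1.29 ± 0.33, adjusted p = 0.0115). This call rested on unstimulated replicates 2 and 3: without replicate 2 the change was 0.97 (adjusted p = 0.113) and without replicate 3 it was 1.03 (adjusted p = 0.0804). Without replicate 1 it was 2.26 (adjusted p = 9.10e-05). At 18 h Ptgs2 had 1.90 ± 0.873 CPM under IL-4 and 1.06 ± 0.149 in unstimulated cells (log2 0.77, adjusted p = 0.198). It was called without IL-4 replicate 2 (log2 1.17, adjusted p = 0.0492). The order of group means was LPS with IFNg at 18 h, LPS with IFNg at 1 h, LPS at 1 h, LPS at 18 h and IL-4 at 1 h, no neighbours of which overlapped, and then IL-4 at 18 h and the unstimulated groups, which did overlap.

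Ptgs1 went the other way at 18 h. It had 6.26, 3.43 and 5.32 CPM in unstimulated cells, 0.177, 0.624 and 0.755 under LPS, 0.465, 0.379 and 0.189 under LPS with IFNg, and 41.8, 41.3 and 36.1 under IL-4. All LPS-treated libraries lay below 1 CPM and all IL-4 libraries above 36, with the unstimulated ones between them and no overlap. Counting set the precision of the low groups, which held 8 counts in all under LPS and 6 under LPS with IFNg. Ptgs1 was 9.39-fold lower under LPS (log2 -3.23 ± 0.38, adjusted p = 1.28e-08) and 13.3-fold lower under LPS with IFNg (log2 -3.74 ± 0.40, adjusted p = 1.39e-09). It was 8.01-fold higher under IL-4 (log2 95% interval 2.68 to 3.32, adjusted p = 1.59e-15).

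At 1 h Ptgs1 had 3.80 ± 0.596 CPM in unstimulated cells, 2.81 ± 0.639 under LPS and 3.74 ± 0.344 under LPS with IFNg, and the libraries of these groups overlapped. Under IL-4 it had 6.16, 5.17 and 7.46 CPM at 1 h, each above the unstimulated 4.42, 3.23 and 3.75. That rise of 1.64-fold (log2 0.71 ± 0.21, adjusted p = 0.040) was not called by DESeq2 (adjusted p = 0.0808) or in a fit of the 2 groups alone (adjusted p = 0.0587). It was also lost without unstimulated replicate 2 or 3 or IL-4 replicate 1 or 3. Ptgs1 shares 148 of its 3884 exon bases with the opposite-strand gene Gm43621, and whether the authors' counting used strand is not given in the sources used here.

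To set genes side by side, CPM was divided by kilobases of exon, the union of all annotated exons of a gene. That length need not be the length of the transcript these cells make, so shares between genes are approximate. On this scale Ptgs2 made up 15.6% ± 2.24 (SD, n = 3) of the summed cyclooxygenase level in unstimulated cells at 18 h. Its share was 98.7% ± 0.768 under LPS and 99.98% under LPS with IFNg, and 3.93% under IL-4. The summed level was 1.52 CPM per kilobase in unstimulated cells, 10.8 under LPS, 505 under LPS with IFNg and 10.6 under IL-4. LPS and IL-4 thus had like summed cyclooxygenase levels per kilobase, nearly all Ptgs2 under LPS and nearly all Ptgs1 under IL-4.

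**Figure D2:**
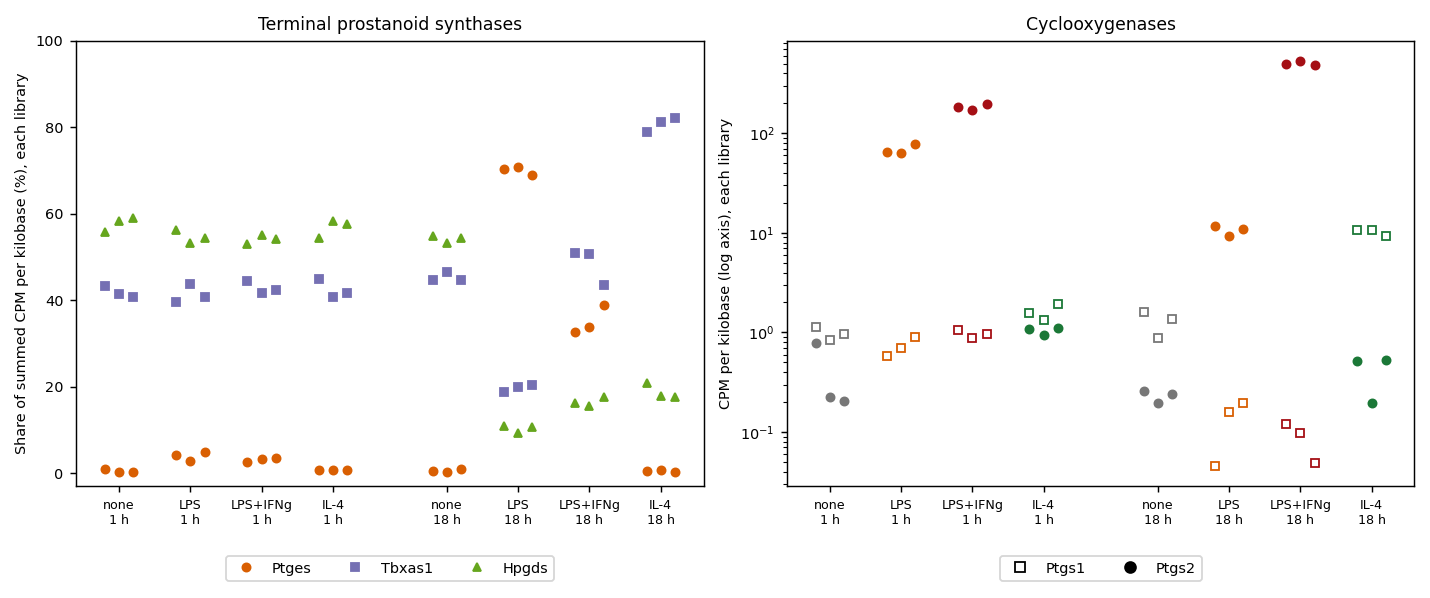
Left, share in percent of each of 3 terminal synthases (Ptges, Tbxas1, Hpgds) in their summed CPM per kilobase of exon, 1 point for each library. Right, CPM per kilobase of Ptgs1 and Ptgs2 on a log axis, 1 point for each library. Among these 3 synthases at 18 h, Ptges has the largest share in the 3 LPS libraries and Tbxas1 in the 3 IL-4 libraries. Ptgs1 and Ptgs2 change places between LPS and IL-4.

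Terminal synthases set which prostanoid is made from prostaglandin H2. Ptges (chr2:30889471-30929863, minus strand) encodes the inducible prostaglandin E synthase that is known to work with COX-2, and Tbxas1 (chr6:38875404-39084585, plus strand) encodes thromboxane synthase. The 250 bases before a RefSeq start of each are printed because Ptges rose under LPS and Tbxas1 under IL-4. They lie on GRCm38.p6 at chr2:30903298-30903547 (minus strand) and chr6:38918736-38918985 (plus strand), in both cases inside the longer GENCODE gene, and capitals mark motif matches.
Ptges: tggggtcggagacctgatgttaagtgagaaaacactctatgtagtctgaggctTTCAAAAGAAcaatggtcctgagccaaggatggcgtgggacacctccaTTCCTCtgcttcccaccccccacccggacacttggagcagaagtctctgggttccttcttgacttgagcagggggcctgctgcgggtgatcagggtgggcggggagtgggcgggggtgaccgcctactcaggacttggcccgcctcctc
Tbxas1: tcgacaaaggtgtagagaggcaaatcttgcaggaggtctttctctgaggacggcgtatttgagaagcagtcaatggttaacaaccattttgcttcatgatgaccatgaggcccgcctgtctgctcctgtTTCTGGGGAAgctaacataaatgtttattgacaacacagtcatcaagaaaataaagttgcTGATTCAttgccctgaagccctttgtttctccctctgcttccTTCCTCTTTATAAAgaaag
Each window held a match to the STAT6 motif, at -197 to -188 for Ptges and -121 to -112 for Tbxas1, and 5.85% of all windows hold one. Each also held a PU.1 match on the other strand (TTCCTC). The Tbxas1 window had an AP-1 match (TGANTCA, in 6.75% of windows) at -61 to -55, and TATAAA matches on both strands (in 12.4% of windows) from -13 to -6, next to the PU.1 letters.

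Ptges had 1.79, 0.440 and 0.750 CPM in unstimulated cells at 1 h, 8.13, 6.05 and 10.2 under LPS and 5.18, 6.96 and 6.99 under LPS with IFNg. The LPS-treated libraries were all higher than the unstimulated ones and overlapped each other. The rise was 7.71-fold under LPS (log2 2.95 ± 0.34, adjusted p = 3.95e-08) and 6.08-fold under LPS with IFNg (log2 2.60 ± 0.34, adjusted p = 3.93e-07). Without unstimulated replicate 1 these were 13.5-fold (log2 3.75) and 10.7-fold (log2 3.42). At 18 h Ptges had 1.01, 0.596 and 1.88 CPM in unstimulated cells, 259.8, 293 and 257 under LPS and 54.7, 56.4 and 62.4 under LPS with IFNg. Here LPS alone was the highest group and none of the 3 groups overlapped. The rise was 229-fold under LPS (log2 7.84 ± 0.19, adjusted p = 2.79e-24) and 49.1-fold under LPS with IFNg (log2 5.62 ± 0.22, adjusted p = 1.49e-19). The unstimulated group held 22 counts in all, so the size of these folds is uncertain. Over the alternatives the log2 values ran from 7.42 to 8.38 under LPS and from 5.09 to 6.15 under LPS with IFNg. Under IL-4 Ptges had 1.35 ± 0.0262 CPM at 1 h and 1.07 ± 0.621 CPM at 18 h, a difference of -0.02 from unstimulated cells at 18 h (adjusted p = 0.979).

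Tbxas1 was at 181 ± 6.32 CPM in unstimulated cells at 18 h. Under IL-4 the 3 libraries held 353, 393 and 396 CPM against 174, 185 and 185 without stimulus, and all IL-4 libraries were above all libraries of the other 7 groups. The rise was 2.10-fold (log2 1.07 ± 0.08, adjusted p = 2.99e-12). Under LPS it had 176 ± 15.5 CPM and under LPS with IFNg 185 ± 20.2 CPM. The differences from unstimulated cells were -0.04 (95% interval -0.21 to 0.12) and 0.03 (-0.13 to 0.19), and neither was called. Library-size scaling called both lower, at -0.47 (adjusted p = 4.66e-06) under LPS and -0.51 (adjusted p = 8.51e-07) under LPS with IFNg. At 1 h all 4 groups lay between 177 and 210.1 CPM and no change was called. Tbxas1 shares 144 of its 9094 exon bases with the opposite-strand gene Gm42962.

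Hpgds (chr6:65117293-65144908, minus strand), the hematopoietic prostaglandin D synthase, was lower under all 3 stimuli at 18 h. It had 151, 149 and 159 CPM in unstimulated cells, 66.6, 62.2 and 65.9 under LPS, 44.5, 42.0 and 46.5 under LPS with IFNg, and 65.8, 61.2 and 60.2 under IL-4. The unstimulated libraries lay above all others, LPS and IL-4 overlapped, and LPS with IFNg was the lowest. The fall was 2.35-fold under LPS (log2 -1.23 ± 0.07, adjusted p = 2.30e-15), 3.45-fold under LPS with IFNg (log2 -1.78 ± 0.07, adjusted p = 4.55e-19) and 2.45-fold under IL-4 (log2 -1.29 ± 0.07, adjusted p = 4.17e-15). At 1 h the 4 group means lay between 178 and 182 CPM and none was called.

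The make-up of the 3 synthases per kilobase shifted with these changes. These shares depend on the exon lengths used, 9.094 kilobases for Tbxas1, 6.425 for Hpgds and 3.931 for Ptges. They also depend on which synthases are summed, and Ptges2, another prostaglandin E synthase, was left out. In unstimulated cells at 18 h, Hpgds made up 54.1% ± 0.860, Tbxas1 45.3% ± 1.10 and Ptges 0.666% ± 0.355 of their sum. By CPM without that division Tbxas1 (181) was above Hpgds (153) in those cells. Under LPS, Ptges made up 70.0% ± 0.988, Tbxas1 19.7% ± 0.819 and Hpgds 10.3% ± 0.994. Under LPS with IFNg, Tbxas1 had 48.4% ± 4.28 and Ptges 35.1% ± 3.26, and under IL-4 Tbxas1 had 80.7% ± 1.70. The summed level was 44.0 CPM per kilobase in unstimulated cells, 98.2 under LPS and 41.9 under LPS with IFNg. At 1 h Ptges remained a small part, 4.03% under LPS and 3.10% under LPS with IFNg, against 0.535% ± 0.404 in unstimulated cells.

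Ptger4 (chr15:5206661-5244187, minus strand), which encodes the prostaglandin E2 receptor EP4, had its highest level early. At 1 h it had 23.9, 23.0 and 27.6 CPM in unstimulated cells, 40.6, 49.8 and 53.2 under LPS and 142, 138 and 143 under LPS with IFNg. None of the 3 groups overlapped. It was 1.93-fold higher under LPS (log2 0.95 ± 0.11, adjusted p = 4.60e-08) and 5.70-fold higher under LPS with IFNg (log2 2.51 ± 0.10, adjusted p = 5.41e-19). Under IL-4 the libraries held 28.7, 31.5 and 32.0 CPM, all above the unstimulated ones, with a log2 difference of 0.31 that did not pass the test (adjusted p = 0.110).

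At 18 h Ptger4 had 28.5 ± 1.46 CPM in unstimulated cells, 36.4 ± 3.42 under LPS, 21.5 ± 3.25 under LPS with IFNg and 16.9 ± 1.31 under IL-4. It was 1.31-fold lower under LPS with IFNg (log2 -0.39 ± 0.12, adjusted p = 0.0035) and 1.68-fold lower under IL-4 (log2 -0.75 ± 0.11, adjusted p = 5.43e-06). Under LPS it was 1.28-fold higher (log2 0.36 ± 0.11, adjusted p = 0.0054), a difference of -0.061 with library-size scaling. The response to LPS with IFNg fell by 2.90 on the log2 scale from 1 h to 18 h by the interaction test. Ptger4 shares 82 of its 6648 exon bases with the opposite-strand gene Ttc33, which had 2935 counts over all libraries, and 1015 with Gm15937, which had 0.

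**Figure D3:**
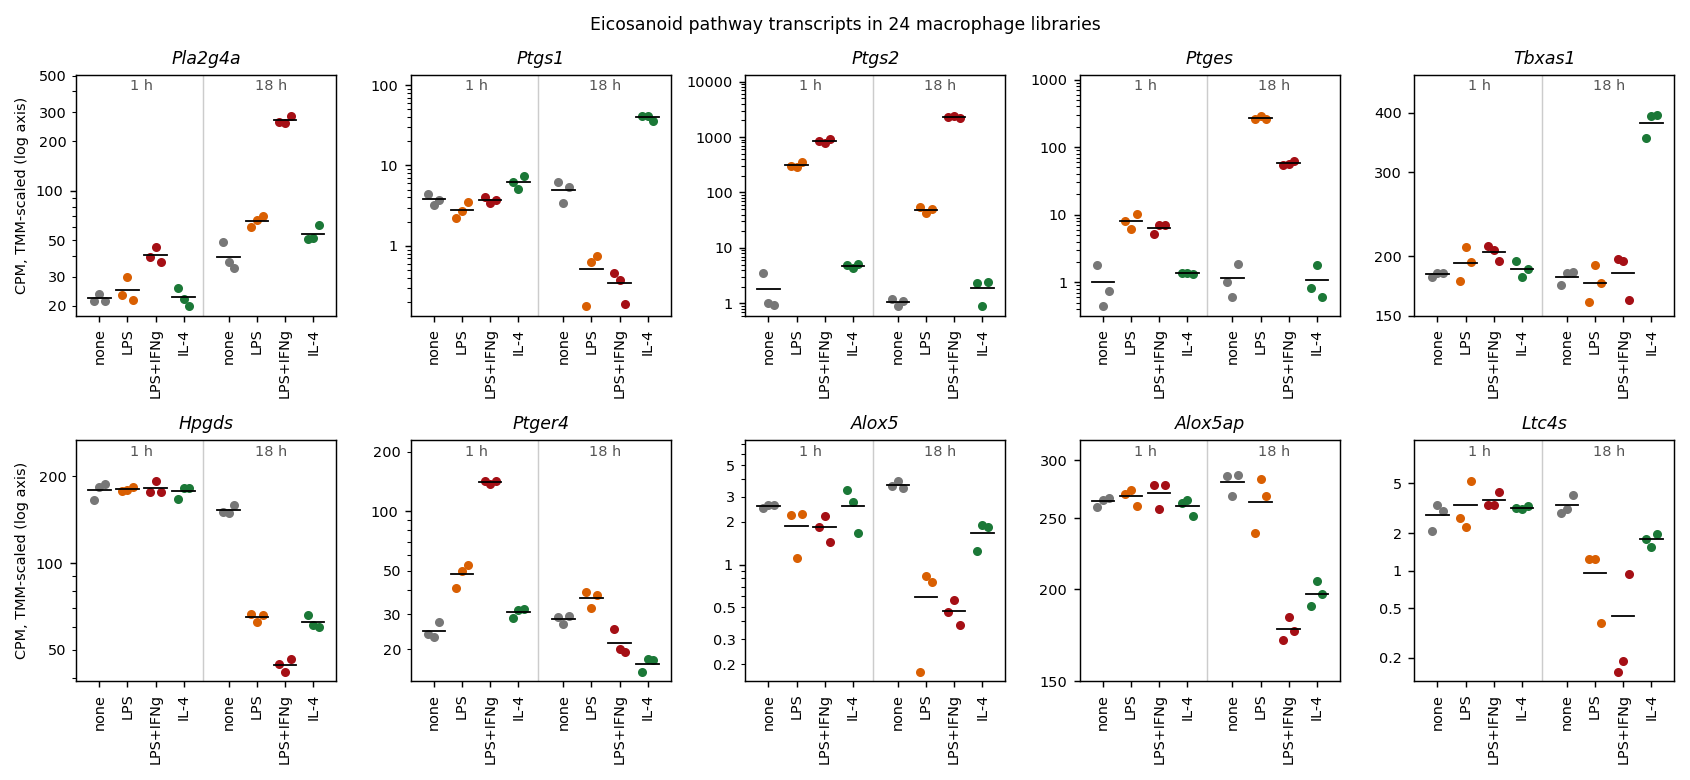
CPM of each of the 10 genes on a log axis in the 8 groups, with 1 point for each of the 24 libraries and a line at the mean of each group. Alox5ap, Tbxas1 and Hpgds lie near or above 100 CPM in unstimulated cells, while Ptgs2 and Ptges start near 1 CPM and rise under LPS, and Alox5 and Ltc4s stay below 6 CPM in all libraries.

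In the leukotriene branch, the transcript of FLAP was abundant and that of 5-lipoxygenase was not. In unstimulated cells at 18 h, Alox5ap (chr5:149264767-149288153, plus strand) had 197 CPM per kilobase, Ltc4s (chr11:50236461-50238616, minus strand) 3.31 and Alox5 (chr6:116410077-116461178, minus strand) 0.882. FLAP presents arachidonic acid to 5-lipoxygenase. None of the 3 genes was called higher under any stimulus at either time. At 1 h Ltc4s had 2.81 ± 0.671 CPM in unstimulated cells and 3.67 ± 0.547 under LPS with IFNg. These came from 54 and 59 counts, so a small rise is not excluded.

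Alox5ap was nearly level at 1 h, with group means from 259 to 271 CPM. At 18 h it had 286, 268 and 286 CPM in unstimulated cells, 239, 283 and 268 under LPS, 171, 183 and 176 under LPS with IFNg, and 190.0, 205 and 197 under IL-4. LPS overlapped the unstimulated libraries, and the other 2 groups lay below both. It was 1.58-fold lower under LPS with IFNg (log2 -0.66 ± 0.06, adjusted p = 2.19e-10) and 1.42-fold lower under IL-4 (log2 -0.50 ± 0.06, adjusted p = 2.30e-07). Under LPS the difference was -0.09 (95% interval -0.22 to 0.04) and was not called. It was called at -0.51 (adjusted p = 2.67e-08) with library-size scaling and at -0.14 (adjusted p = 0.0492) without replicate 2 of LPS and of IL-4. Alox5ap shares 189 of 1420 exon bases with the opposite-strand gene Gm19719.

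Alox5 rested on few reads. It had 3.55, 3.87 and 3.44 CPM in unstimulated cells at 18 h, 0.177, 0.833 and 0.755 under LPS, 0.465, 0.568 and 0.378 under LPS with IFNg, and 1.25, 1.89 and 1.83 under IL-4. The unstimulated libraries were all above the IL-4 libraries, which were all above both LPS groups, where 9 and 8 counts were found over the 3 libraries. It was 6.15-fold lower under LPS (log2 -2.62 ± 0.39, adjusted p = 8.79e-07), 7.43-fold lower under LPS with IFNg (log2 -2.89 ± 0.39, adjusted p = 1.55e-07) and 2.16-fold lower under IL-4 (log2 -1.11 ± 0.28, adjusted p = 0.0020). At 1 h it had 2.58 ± 0.0859 CPM in unstimulated cells and 1.87 ± 0.647 under LPS, and although these groups did not overlap the test did not call it (adjusted p = 0.395).

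Ltc4s was likewise low. It had 2.87, 3.13 and 4.07 CPM in unstimulated cells at 18 h, 1.24, 1.25 and 0.378 under LPS, 0.155, 0.189 and 0.946 under LPS with IFNg, and 1.80, 1.56 and 1.98 under IL-4. All stimulated libraries lay below all unstimulated ones. It was 3.47-fold lower under LPS (log2 -1.80 ± 0.40, adjusted p = 2.61e-04) and 7.82-fold lower under LPS with IFNg (log2 -2.97 ± 0.47, adjusted p = 1.94e-06). Without replicate 3 of LPS with IFNg the latter was -4.14 (adjusted p = 7.62e-07). Under IL-4 it was 1.90-fold lower (log2 -0.93 ± 0.32, adjusted p = 0.0210), a call lost without unstimulated replicate 3 (-0.77, adjusted p = 0.107) or IL-4 replicate 2 (-0.82, adjusted p = 0.0856). Ltc4s shares 268 of its 1014 exon bases with the opposite-strand gene Gm26542, which had 184 counts.

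Other blood cells also express leukotriene and prostaglandin D synthesis genes, so their markers are given beside these falls. The 9 neutrophil markers summed to 125 to 187 CPM in unstimulated cells at 18 h, 123 to 177 under LPS (Retnlg at 0), 31.5 to 54.8 under LPS with IFNg (Mpo, Elane and Retnlg at 0) and 128 to 178 under IL-4. The 4 eosinophil markers summed to 29.0 to 36.2 CPM, 38.5 to 67.6, 3.57 to 3.98 and 43.5 to 54.5 in the same order. The 10 mast cell and basophil markers never summed to more than 14.6 CPM, and Mcpt4 was at 0 in all groups. The neutrophil and eosinophil sums were lower under LPS with IFNg at 18 h, together with Hpgds, Alox5ap, Alox5 and Ltc4s, and their part in the result was not tested. Under LPS alone the members of each list went different ways. S100a8 went from 25.8 to 55.9 CPM while Ltf went from 30.7 to 17.3, Ngp from 35.2 to 18.4 and Camp from 3.88 to 1.66. Of the eosinophil markers Ccr3 went from 23.7 to 48.5 CPM while Siglecf went from 5.77 to 2.17 and Prg2 from 2.74 to 1.20. Hpgds, Alox5 and Ltc4s were lower there too, and the part of these cells was not tested. Under IL-4 the corresponding means were 32.4 CPM for Ltf, 32.4 for Ngp, 36.3 for Ccr3, 8.43 for Siglecf and 3.33 for Prg2.

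The effect of IFNg on top of LPS was then measured by comparing LPS with IFNg against LPS. At 1 h 3 members were higher and none lower, where 11.8% of all tested genes were called (6.51% higher, 5.25% lower). Ptgs2 was 2.67-fold higher (log2 1.42 ± 0.11, adjusted p = 1.70e-11), Ptger4 2.95-fold (log2 1.56 ± 0.10, adjusted p = 6.85e-14) and Pla2g4a 1.64-fold (log2 0.71 ± 0.14, adjusted p = 3.45e-04). Ptges differed by -0.34 (adjusted p = 0.532).

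At 18 h IFNg added to LPS gave 2 higher and 4 lower members, where 47.4% of all tested genes were called (23.4% lower and the rest higher). Ptgs2 was 47.0-fold higher (log2 5.55 ± 0.13, adjusted p = 1.26e-23) and Pla2g4a 4.08-fold higher (log2 2.03 ± 0.11, adjusted p = 9.15e-16). Ptges was 4.67-fold lower (log2 -2.22 ± 0.11, adjusted p = 3.14e-16), so the inducible synthase and its cyclooxygenase partner moved in opposite directions. Ptger4 was 1.68-fold lower (log2 -0.75 ± 0.11, adjusted p = 2.97e-06), the reverse of its change at 1 h. Alox5ap was 1.49-fold lower (log2 -0.57 ± 0.07, adjusted p = 1.48e-08) and Hpgds 1.46-fold lower (log2 -0.55 ± 0.08, adjusted p = 8.88e-07). Ltc4s had a log2 difference of -1.17 (adjusted p = 0.137), which became -2.35 (adjusted p = 0.0208) without replicate 3 of LPS with IFNg.

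**Figure D4:**
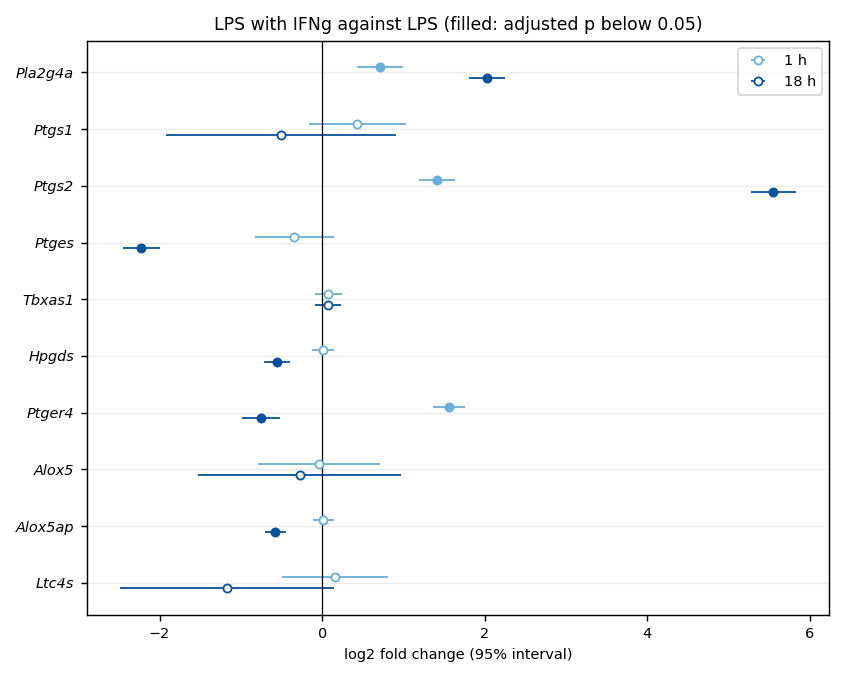
Log2 fold change of LPS with IFNg against LPS alone (horizontal axis, 95% intervals) for each of the 10 genes at 1 h and 18 h, from 3 libraries a group, with filled points at an adjusted p below 0.05. Ptgs2 moves from 1.42 to 5.55, Ptger4 crosses from 1.56 to -0.75 and Ptges goes from an uncalled -0.34 to -2.22.

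The change between times was itself tested. Of the 10 genes, the effect of added IFNg was higher at 18 h for 2 and lower for 4, where 35.0% of all tested genes were called (16.5% higher, 18.5% lower). The LPS response differed between times for 8 members (2 higher at 18 h, 6 lower), where 54.2% of all tested genes were called (27.0% higher, 27.2% lower), and library-size scaling made this 1 and 8. The LPS with IFNg response differed for 9 (3 higher, 6 lower), against 64.0% of all tested genes (31.8% higher, 32.2% lower). The IL-4 response differed for 6 (2 higher, 4 lower), against 21.5% of all tested genes (10.1% higher, 11.4% lower).

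IL-4 and LPS were compared directly at 18 h. In that comparison 3 members were higher under IL-4 and 5 lower, where 65.0% of all tested genes were called (32.9% higher, 32.1% lower), and library-size scaling made this 5 higher and 3 lower. Ptgs1 was 75.2-fold higher under IL-4 (log2 6.23 ± 0.25, adjusted p = 2.94e-19), Alox5 2.85-fold (log2 1.51 ± 0.44, adjusted p = 0.0038) and Tbxas1 2.17-fold (log2 1.12 ± 0.08, adjusted p = 1.91e-13). The Alox5 call was lost without LPS replicate 1 (1.05, adjusted p = 0.0629). Ptges was 233-fold lower under IL-4 (log2 -7.86 ± 0.19, adjusted p = 1.03e-24), Ptgs2 26.9-fold (log2 -4.75 ± 0.22, adjusted p = 8.72e-18), Ptger4 2.15-fold (log2 -1.10 ± 0.11, adjusted p = 1.00e-09) and Alox5ap 1.33-fold (log2 -0.41 ± 0.06, adjusted p = 1.79e-06). Without IL-4 replicate 2 the Ptges value was -8.50, and the Alox5ap call was lost with library-size scaling (-0.055, adjusted p = 0.436). Pla2g4a was 1.20-fold lower (log2 -0.26 ± 0.11, adjusted p = 0.0413), with overlapping libraries, a call lost under 8 of the alternatives, among them library-size scaling (0.093). Ltc4s (0.87, adjusted p = 0.085) and Hpgds (-0.06, adjusted p = 0.508) were not called.

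Between unstimulated cells at 18 h and 1 h, 1 member was higher and 1 lower, where 12.0% of all tested genes were called (4.00% higher, 8.01% lower). Pla2g4a was 1.78-fold higher at 18 h (log2 0.83 ± 0.13, adjusted p = 4.72e-05). Hpgds was 1.17-fold lower (log2 -0.23 ± 0.07, adjusted p = 0.0212), a call lost under 6 of the alternatives tried. The other 8 members were not called.

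Further genes of the pathway were taken from lists by role, of which 71 had an identifier in the files and 46 were tested. At 18 h, 25 rose and 9 fell under LPS, 19 rose and 15 fell under LPS with IFNg, and 14 rose and 11 fell under IL-4. The shares of all tested genes called in these comparisons are those given above, and library-size scaling made the LPS split 17 and 18 and the LPS with IFNg split 13 and 24. At 1 h, 5 rose under LPS and none fell, 6 rose and 1 fell under LPS with IFNg, and 4 rose under IL-4 with none falling. Of all tested genes, 10.8% were called higher and 11.5% lower under LPS at 1 h. The shares were 14.7% in each direction under LPS with IFNg, and 3.22% higher and 3.27% lower under IL-4. The rises under LPS and under LPS with IFNg thus lie near the background. Library-size scaling made the 1 h splits 3 higher and 4 lower under LPS and 3 higher and 9 lower under LPS with IFNg. Under LPS at 18 h the median log2 change was 0.42 over the 46 and 0.01 over all tested genes.

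Of 22 genes that release arachidonate or return it to membranes 16 were tested, and of these 10 rose and 2 fell under LPS at 18 h. With library-size scaling these were 7 and 5. In that comparison 63.1% of all tested genes were called (31.8% higher, 31.4% lower), so the 12 called of 16 lie near the background. Acsl1, an acyl-CoA synthetase, went from 51.0 to 925 CPM (log2 4.18 ± 0.10, adjusted p = 9.34e-25). Pla2g7, the secreted phospholipase that breaks down platelet-activating factor, went from 54.5 ± 5.56 to 972 ± 92.1 CPM (log2 4.15 ± 0.09, adjusted p = 1.35e-25), and it shares 319 of its 2905 exon bases with the opposite-strand gene 1700071M16Rik. Pla2g16 rose by 3.01 under LPS and 5.15 under LPS with IFNg on the log2 scale, while Acsl3 fell by 2.39 and 2.67. IL-4 at 18 h raised Pla2g5, another secreted phospholipase, from 1.04 to 7.84 CPM (log2 2.88 ± 0.32, adjusted p = 2.64e-08). At 1 h Pla2g15, a lysosomal phospholipase, went from 164 to 423 CPM under LPS with IFNg (log2 1.36).

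Of 15 receptor genes in the files 8 were tested, and these 8 rose under LPS at 18 h. In that comparison 31.8% of all tested genes were called higher and 31.4% lower. With library-size scaling 6 of the 8 receptor genes rose and none fell. A gene read in 1 group can pass the count filter through that group, so the counts by role describe the tested genes and not the whole lists. Fpr2, the receptor for lipoxin A4 and formyl peptides, went from 0.697 to 208 ± 41.8 CPM (log2 8.20 ± 0.24, adjusted p = 2.19e-22). Ptger2, which encodes the EP2 receptor for prostaglandin E2, went from 5.38 to 20.1 ± 3.92 CPM (log2 1.88 ± 0.18, adjusted p = 2.91e-10). The leukotriene B4 receptor Ltb4r1 rose by 2.22 and the cysteinyl leukotriene receptor Cysltr2 by 2.01 on the log2 scale, both from about 1 CPM or less. Ptgdr2 shares 1031 of its 2644 exon bases with the opposite-strand gene Ccdc86, so its count is uncertain.

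IL-4 raised 2 of the 8 tested receptor genes at 1 h, where 3.22% of all tested genes were called higher. Ptger2 held 16.0, 17.4 and 21.9 CPM under IL-4 and 4.69, 3.37 and 3.19 CPM in unstimulated cells, with no overlap (log2 2.26 ± 0.19, adjusted p = 2.80e-10). Ptgir, the prostacyclin receptor, held 23.0, 21.9 and 26.3 CPM against 11.7, 9.83 and 9.94 (log2 1.17 ± 0.13, adjusted p = 8.41e-08). Both were still higher at 18 h, Ptger2 by 1.20 ± 0.19 and Ptgir by 1.53 ± 0.12, while Ptger4 was lower.

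Of 8 other prostanoid synthase genes 6 were tested. Under IL-4 at 18 h 2 rose and none fell, where 39.2% of all tested genes were called (19.0% higher, 20.1% lower). Of the 2, Ptges2, a prostaglandin E synthase, went from 15.2 to 29.4 CPM (log2 0.97, adjusted p = 4.48e-07). Under LPS with IFNg against LPS at 18 h none rose and 3 fell, among them Fam213b by 2.11 and the carbonyl reductase Cbr1 by 1.37 on the log2 scale. Of all tested genes, 47.4% were called in this comparison (23.4% lower and the rest higher), close to the 3 called of 6. Of 15 leukotriene and lipoxygenase enzyme genes 6 were tested, and 2 rose and 4 fell under LPS with IFNg at 18 h. There 72.2% of all tested genes were called (36.1% in each direction). Mgst1, a microsomal glutathione transferase, went from 38.7 to 230.4 CPM and Mgst3 from 60.0 to 6.13, and Lta4h, which makes leukotriene B4, fell by 1.11 on the log2 scale.

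Of 11 genes listed under export, uptake and breakdown, with annexin A1 (Anxa1) among them, 10 were tested. Under LPS at 18 h 2 rose and 4 fell, Anxa1 being 1 of the 4. In that comparison 63.1% of all tested genes were called (31.8% higher, 31.4% lower), close to the 6 called of 10. Hpgd, the dehydrogenase that inactivates prostaglandins, had 17.0 ± 2.38 CPM in unstimulated cells and 0.139 under LPS, from 324 and 2 counts. That is a 134-fold lower level, with an exact 95% interval of 36.8 to 1111 that covers counting error only. It had 0.585 CPM under LPS with IFNg and 4.01 under IL-4 (log2 -2.08). Ptgr1, a reductase in the next step of breakdown, went from 38.6 to 119 CPM under LPS and 168 under LPS with IFNg. Anxa1, annexin A1, fell from 1535 to 483 CPM under LPS and to 297 under LPS with IFNg, and rose to 2495 under IL-4.

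**Figure D5:**
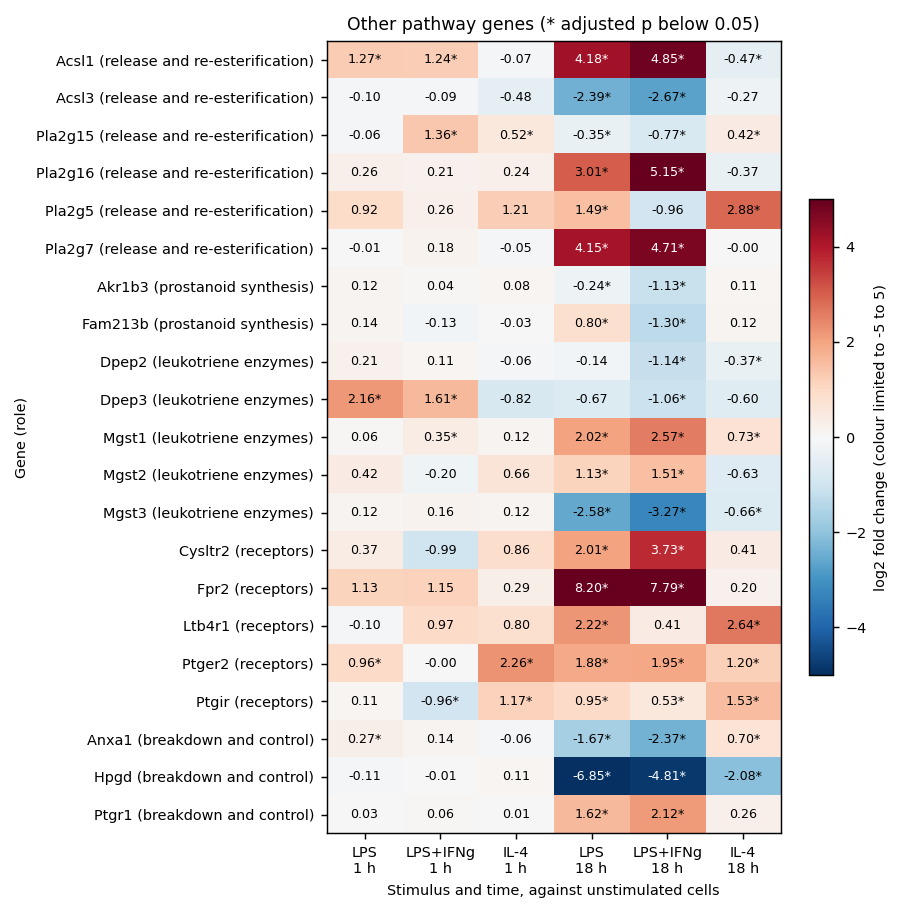
Log2 fold change (number and colour, the colour limited to -5 to 5) against unstimulated cells of the same time for the other pathway genes that the size rule names, for LPS, LPS with IFNg and IL-4 at 1 h and 18 h, with a star at an adjusted p below 0.05. Under LPS at 18 h Fpr2 is raised by 8.20 and Mgst3 is at -2.58, and Ptger2 and Ptgir are raised by IL-4 at both times.

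The genes whose pattern was most like each member were found over the 24 libraries among 11234 genes, by the root mean square difference of log2 CPM centred on each gene's own mean. For Ptgs2 the nearest were Il12b (1.28), Cd69 (1.39) and Cd40 (1.42). For Ptges they were Fpr1 (0.62), Mmp14 (0.63) and H2-Q7 (0.67), and for Ptgs1 Phgdh (0.55), Itgb3 (0.58) and Olfm1 (0.59). Pla2g4a was nearest to Serpinb1b (0.31), Tbxas1 to Il11ra1 (0.16), Hpgds to Folr2 (0.19) and Ptger4 to Ikzf5 (0.39). A member's own root mean square around its mean was 4.07 for Ptgs2 and 0.35 for Tbxas1. Distances therefore cannot be compared between members. The libraries share their groups, so these distances describe the pattern and carry no test.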

How the data were processed

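Expression was measured in 24 RNA sequencing libraries of macrophages, in 8 groups of 3. The values that the authors deposited are whole-number read counts for each Ensembl gene, not normalized. The authors used GRCm38 with STAR, featureCounts, deepTools and DESeq2, per the submitters' processing notes. Versions, annotation release, strand setting and the handling of multiply aligned reads are not given in the sources used here. A stranded mRNA kit and a HiSeq sequencer were used, per the labels' protocols. Total counts of 4181890 to 8122945 per library set the precision of low genes.

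Groups were taken from the labels. The 10 members, the role lists, the markers, the tests and the alternatives were chosen with earlier results of these data known. Of 43629 identifiers, 42462 matched GENCODE M21. Genes were kept with filterByExpr (minimum count 10), scaled by TMM (factors 0.80 to 1.18) and modelled in edgeR 4.0.16 (R 4.3.3) by group, over all 24 libraries. Two-sided quasi-likelihood p-values for the 12765 genes tested were adjusted by Benjamini-Hochberg, with calls at an adjusted p under 0.05. Group differences at 18 h and 1 h were compared by interaction contrasts. Levels per kilobase used the union of GENCODE exons. The fit was also run on simulated counts in which few genes changed, unlike the LPS groups here, so that run does not speak to them.

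All 10 members were tested in each comparison, and members that were not called are not all named. Other pathway genes were open to naming where called with a log2 change of at least 1 and a mean of at least 1 CPM, up to 4 a list and comparison by size. Ptges2 and Anxa1 under IL-4, Lta4h under LPS with IFNg, and Ptgdr2 under LPS were named outside that rule after their values were seen, and a few genes the rule names are not reported here.

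Replicate numbers were checked for pairing by the correlation of deviations from group means. Of 28 pairs of groups 2 had all same-number correlations over 0.1: IL-4 with unstimulated cells at 1 h (0.133 to 0.231), and IL-4 with LPS at 18 h (0.125 to 0.427). No pair of replicates differed by as little as sampling noise, with chi-square values per gene from 1.62 to 11.4.

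Promoter windows of 250 bases before the start came from a RefSeq table of GRCm38.p6, which held 9 of the 10 members, and motifs were searched on both strands. Alternatives were median-of-ratios scaling, scaling by library size, no filter on low counts, DESeq2 1.42.0, the compared groups alone, a replicate block, each replicate left out in turn, and libraries that stood apart left out in pairs.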

Additional observations from a re-analysis of the deposited data

Results flagged for a closer look

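For 29 changes of the 10 genes the response at 18 h differed from that at 1 h, by the interaction test of edgeR with Benjamini-Hochberg adjustment. Each value is the response at 18 h minus the response at 1 h on the log2 scale, from 3 libraries a group.

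Under LPS the Ptges response was larger at 18 h by 4.89 and that of Pla2g4a by 0.56, a call lost with library-size scaling (0.33, adjusted p = 0.166). The Ptgs2 response was smaller (-1.81), as was that of Ptger4 (-0.59). Differences below 0 were also found for Ptgs1 (-2.77), Alox5 (-2.16), Ltc4s (-2.04) and Hpgds (-1.25). Without unstimulated replicate 1 at 1 h the values were 4.09 for Ptges and -2.76 for Ptgs2.

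Under LPS with IFNg the Ptgs2 response was larger at 18 h by 2.33, in contrast to LPS alone, and those of Ptges and Pla2g4a by 3.01 and 1.88. Lower values were found for Ptgs1 (-3.71), Ltc4s (-3.36), Ptger4 (-2.90), Alox5 (-2.39), Hpgds (-1.81) and Alox5ap (-0.70). Without unstimulated replicate 1 at 1 h the values were 1.36 for Ptgs2 and 2.20 for Ptges, and without replicate 3 of LPS with IFNg at 18 h that of Ltc4s was -4.54.

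Under IL-4 the response was larger at 18 h for Ptgs1 (2.29) and Tbxas1 (1.03). It was lower for Hpgds (-1.28), Alox5 (-1.14), Ptger4 (-1.06) and Alox5ap (-0.48). The Alox5 call was lost under 12 of the 20 alternatives, among them DESeq2 (adjusted p = 0.128) and no filter on low counts (adjusted p = 0.0934).

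The effect of IFNg added to LPS was larger at 18 h for Ptgs2 (4.14) and Pla2g4a (1.32). It was lower for Ptger4 (-2.31), Ptges (-1.88), Alox5ap (-0.59) and Hpgds (-0.56).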

How the results depend on the processing

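Of 140 changes of the 10 genes (10 genes in 14 comparisons), 82 were called, and 71 of these stayed called with their sign under every alternative. A call was lost at least once for 11 changes and gained at least once for 18. Library size alone in place of TMM put the median log2 change of all tested genes at -0.19 under LPS and -0.25 under LPS with IFNg at 1 h, at -0.41 and -0.54 at 18 h, and at 0.36 for IL-4 against LPS. It gave 5 members and 4437 genes called under LPS at 1 h (2838 with TMM), 7 members, 12 other pathway genes and 6337 genes under LPS with IFNg at 1 h (3749 with TMM), and 1 member for unstimulated cells over time. Under LPS at 18 h it called 2082 genes higher and 6971 lower, against 4055 and 4002 with TMM. The reversed values all came from this scaling. They were Alox5ap (-0.17) and Hpgds (-0.17) under LPS at 1 h, Ptger4 (-0.061) under LPS at 18 h, Alox5ap (-0.22) and Hpgds (-0.24) under LPS with IFNg at 1 h, Tbxas1 (-0.51) under LPS with IFNg at 18 h, and Pla2g4a (0.093) and Hpgds (0.30) for IL-4 against LPS.

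For IL-4 at 1 h, DESeq2 and the compared groups alone each called 1 member, and leaving out a replicate called 0 to 2, with 0 without unstimulated replicate 2 or 3. For unstimulated cells over time, no filter on low counts called 1 member, and leaving out a replicate called 1 to 2 members, 2 to 6 other pathway genes and 863 to 1547 of all tested genes (1533 with all libraries). Only 2 pairs of groups had all same-number correlations over 0.1, and correlations between different numbers were not set beside them. Whether equal replicate numbers mark paired libraries is thus not established. The replicate block changed 0 of the 140 member calls and gave 8 other pathway genes under LPS at 1 h in place of 5. The cause of these shifts was not tested. Depth limits Ptgs1, Alox5 and Ltc4s most, with 6 to 15 counts per group of 3 libraries under the LPS stimuli at 18 h.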
